A study of Mus musculus with 4 samples.

Results

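The microRNA (miRNA) profile of macrophages from the spleen of mice with acute myelogenous leukaemia (AML spleen) was set against that of macrophages from normal bone marrow (normal BM). These are 2 of the 4 libraries of the study, which profiled BM and spleen macrophages from normal mice and from mice at day 18 of AML. The comparison took the 207 of 847 rows of the count table with at least 30 counts in the larger of the 2 libraries, and it addressed how marrow-like the leukaemic spleen was and which miRNAs still set it apart.

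All mice were C57BL/6J, given as 6 to 8 weeks old. The leukaemia was driven by the MLL-AF9 fusion, and GFP+ leukaemia cells taken from sick mice were transferred into recipients that had not been irradiated, so the recipients kept their own haematopoietic cells. Macrophages were then sorted from both organs. The sources used here do not give the sorting markers, how many mice went into a library, or whether both organs of a group were taken from 1 set of animals. Each group has 1 library, so none of the differences has a replicate check, and tissue and disease both differ between AML spleen and normal BM.

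A miRNA is a short RNA that is cut from a hairpin precursor and guides an Argonaute protein to messenger RNAs. The seed, which is bases 2 to 8, pairs with the target, so miRNAs that share a seed can share targets. Each hairpin has a 5p and a 3p arm, and either can be kept as the mature miRNA. Some miRNAs mark cell lineages: miR-142 is found in nearly all haematopoietic cells, miR-223 in myeloid cells, miR-150 in mature lymphocytes, miR-451a in erythroid cells and miR-1 in muscle.

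The sequences shown here are those of miRNAs on which the comparison turned, with the seed in capitals. They and their positions come from RefSeq on GRCm38.p6, and the host genes from GENCODE M21 on the same genome. The first set was higher in AML spleen than in normal BM. The Mir142 hairpin (chr11:87756864-87756927, plus strand) lies in an intron of the long noncoding RNA gene Mir142hg, and Mir155 (chr16:84714140-84714204, plus strand) in an exon of Mir155hg. The mature miR-150-3p is at chr7:45121798-45121819 (plus strand), and miR-455-3p at chr4:63256904-63256924 (plus strand) in an intron of Col27a1.
miR-142a-3p: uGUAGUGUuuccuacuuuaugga
miR-155-5p: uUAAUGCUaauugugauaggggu
miR-150-3p: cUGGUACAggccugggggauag
miR-455-3p: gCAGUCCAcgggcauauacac

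The second set was lower in AML spleen. Mir196b (chr6:52230081-52230165, minus strand) overlaps an exon of Hoxa9, Mir206 (chr1:20679010-20679082, plus strand) an exon of the long noncoding RNA gene Gm28653, and Mir3473b (chr10:41670739-41670793, plus strand) no annotated host.
miR-196b-5p: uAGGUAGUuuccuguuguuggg
miR-206-3p: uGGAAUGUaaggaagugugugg
miR-3473b: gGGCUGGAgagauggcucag

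The third set shows relatives with 1 seed that lay on opposite sides of normal BM. Mir181d (chr8:84178716-84178787, minus strand) lies in an intron of Nanos3, whereas miR-181a-5p and miR-181b-5p are each made from 2 genes, on chromosomes 1 and 2. Mir15b (chr3:69009772-69009835) and Mir16-2 (chr3:69009902-69009996) are neighbours on the plus strand in an intron of Smc4, and miR-16-5p is also made from Mir16-1 on chromosome 14.
miR-181a-5p: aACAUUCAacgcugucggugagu
miR-181b-5p: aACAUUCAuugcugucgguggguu
miR-181d-5p: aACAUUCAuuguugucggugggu
miR-15b-5p: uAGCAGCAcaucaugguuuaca
miR-16-5p: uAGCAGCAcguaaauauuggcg

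The libraries held 180227 counts (AML spleen), 206652 (normal BM), 271209 (AML BM) and 435492 (normal spleen), so AML spleen was the shallowest. Levels are counts per 1000000 counts (CPM) after scaling with TMM factors, and sets of 4 values list the normal tissues first and then the AML tissues, each with BM before spleen. A ratio carries a 95% exact conditional interval, which covers counting error only. A miRNA was called higher or lower in a library where the ratio was at least 2-fold, the interval excluded a ratio of 1 and the larger count was at least 30. At this minimum, 6 rows had exactly 30 counts in the larger library, such as miR-542-3p with 30 in normal BM and 7 in AML spleen. Just outside it were miR-7687-5p with 29 and 4, and miR-151-5p with 26 and 29.

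Rows that bear on the macrophage label were read first, without a test of purity. Among 8 rows of a macrophage and pan-haematopoietic list, miR-223-3p had 10, 28, 12 and 4 counts, and miR-511-5p, from the gene of the mannose receptor, had 0, 5, 0 and 0. The other arm of the myeloid miR-223 hairpin, miR-223-5p, had 42, 36, 149 and 10 counts, most in AML BM and least in AML spleen. Both arms were thus counted in every library, with the 5p arm above the 3p arm in each. The reads of the list made up 0.105%, 1.18%, 0.263% and 0.720% of the libraries, lowest in normal BM. In bulk RNA fewer cells of a type and less RNA per cell cannot be told apart.

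Most of the compared miRNAs were not called. In AML spleen, 129 of the 207 miRNAs were neither higher nor lower than in normal BM, and these held 85.7% of the AML spleen reads and 86.4% of the normal BM reads. The same 129 held 83.4% of the normal spleen reads and 88.3% of the AML BM reads, so such a share was not particular to this pair. A total of 34 were higher (16.4%) and 44 lower (21.3%), together 37.7% of those compared. Differences of at least 4-fold were found for 20 of the higher and 12 of the lower miRNAs, and 74 of the 207 lay within 1.5-fold. The split depends on the scale: TMM factors from the 2 libraries alone gave 42 higher and 36 lower (53.8% of calls higher, against 43.6%), and totals without the 10 most abundant miRNAs gave 47 and 34 (58.0%). Those scales raised every log2 ratio by 0.22 and 0.27, and the median log2 ratio of all 207, which was -0.30, became -0.08 and -0.03.

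The most abundant miRNAs were alike. miR-423-5p, the top miRNA of both libraries, had 98855, 63317, 64446 and 114970.0 CPM, a log2 ratio of AML spleen to normal BM of 0.22. let-7d-3p had 54775, 56709, 43355 and 56054 CPM, a log2 ratio of 0.03. miR-21a-5p, which is abundant in many cell types, had 38799, 13155, 23669.5 and 35644 CPM. Its level in AML spleen was thus close to normal BM (log2 ratio -0.12, turning positive on both scales just named) and 1.44 log2 units above normal spleen. The other 7 of the 10 miRNAs with the highest mean level had log2 ratios of 1.33 (miR-181a-5p), 0.54 (miR-328-3p), 0.52 (miR-423-3p), -0.30 (miR-92a-3p), -0.33 (let-7i-5p), -0.55 (miR-744-5p) and -0.66 (miR-10a-5p). Of these 10, miR-181a-5p was called. Of the 10 most abundant in AML spleen, 7 were also among the top 10 of normal BM, 9 of AML BM and 7 of normal spleen.

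**Figure D1:**
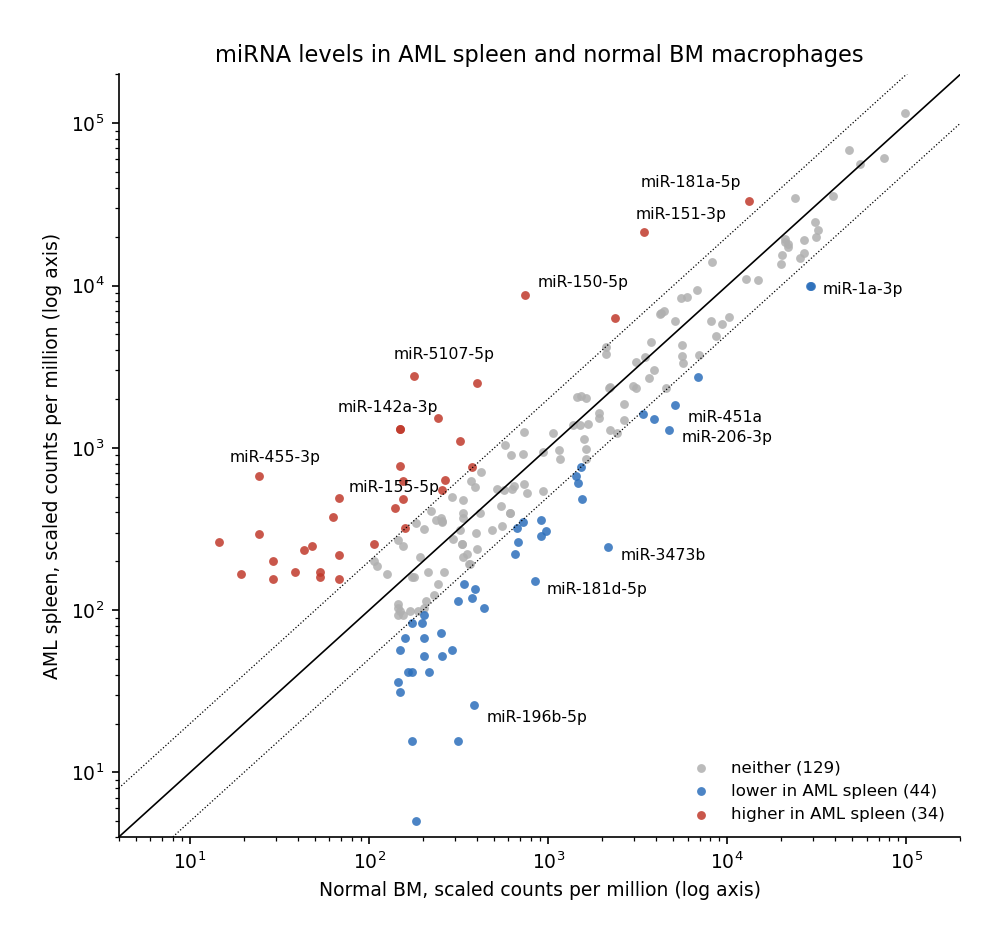
Each point is 1 of 207 miRNAs, with scaled counts per 1000000 in normal BM on the x axis and in AML spleen on the y axis (both log), the solid line at equal levels and dotted lines at 2-fold. The 34 red points were higher and the 44 blue points lower in AML spleen, and 9 of the 10 most abundant miRNAs lie between the dotted lines, with miR-181a-5p above them; miR-204-5p, at 0 counts in AML spleen, is drawn at the bottom edge.

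Distances to the other libraries give the comparison its scale. The median absolute log2 ratio of AML spleen was 0.76 to normal BM (1.70-fold), 0.68 to AML BM (1.6-fold, 211 miRNAs) and 0.95 to normal spleen (1.94-fold, 216 miRNAs). The distance to normal BM was thus smaller than that to normal spleen, with AML BM the nearest library. For the normal tissues the median absolute log2 ratio was 1.59 over 234 miRNAs. Calls made up 35.1% against AML BM, 46.3% against normal spleen and 66.2% between the normal tissues. Across the 144 miRNAs that reached 30 counts in all 4 libraries, log2 levels in AML spleen had a Pearson r of 0.891 with normal BM (Spearman rho 0.851). The r was 0.918 to AML BM (rho 0.887) and 0.861 to normal spleen (rho 0.824), while it was 0.674 between the normal tissues. These coefficients are across miRNAs, which are not replicates, and the pairs share libraries.

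The position of AML spleen between the normal tissues was then read for the 155 miRNAs called between them, on a log2 scale where normal spleen is 0 and normal BM is 1. The normal BM and normal spleen libraries set both the choice and the scale, and AML spleen took no part in the choice. The median position was 0.57, and 91 of the 155 (58.7%) lay nearer normal BM. Between the normal levels lay 122, beyond normal BM 15 and beyond normal spleen 18. AML BM, placed the same way, had a median of 0.70 with 116 nearer normal BM.

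Both directions were also read apart. Of the 83 miRNAs that normal BM had at the higher level, 62 lay nearer normal BM in AML spleen, with a median position of 0.66. Of the 72 that normal spleen had at the higher level, 29 lay nearer normal BM, with a median of 0.42. Thus, in AML spleen, the miRNAs higher in normal BM mostly lay nearer their normal BM level than their normal spleen level. Nearer did not mean near: miR-206-3p (position 0.51) and miR-1a-3p (0.61) were called lower, at log2 ratios of -1.88 and -1.55 to normal BM. The miRNAs higher in normal spleen were more often below the midpoint, on the spleen side. The second count moved with the scale, to 12 of 59 with total counts and 42 of 86 with DESeq2 size factors, whereas the first was 66 of 84 and 54 of 78. No test of this difference was made, since miRNAs of 1 library are not replicates.

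**Figure D2:**
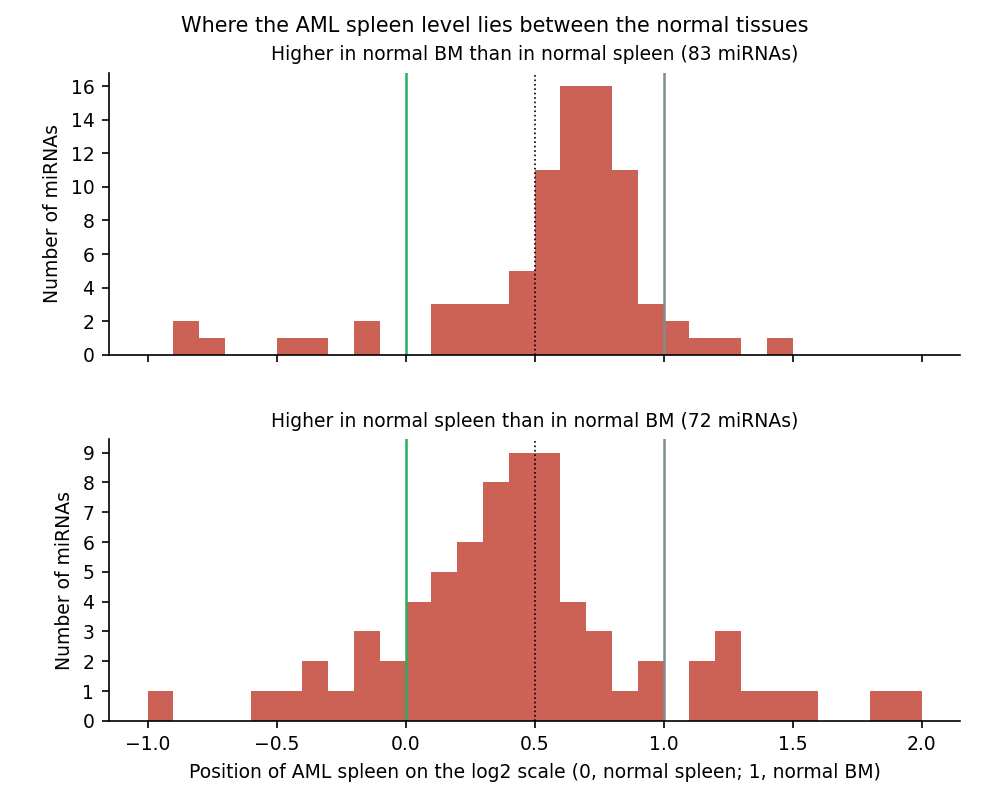
Histograms of the position of the AML spleen level for 83 miRNAs higher in normal BM (top) and 72 higher in normal spleen (bottom); the x axis is the position on the log2 scale, the green line normal spleen (0), the grey line normal BM (1) and the dotted line the midpoint, and positions beyond the axis are drawn in the outermost bars. The median was 0.66 in the top panel and 0.42 in the bottom panel.

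Among miRNAs with the widest gap between the normal tissues, those close to normal BM in AML spleen were miR-126a-5p, miR-126b-3p, miR-100-5p, miR-10b-5p and miR-199a-3p. miR-10b-5p, whose gene lies in the HoxD cluster, had 14852, 1650.1, 8994 and 10744 CPM and a position of 0.85. miR-199a-3p, a miRNA of mesenchymal cells, had 3086, 347, 1619 and 2322 CPM and a position of 0.87. miR-100-5p had 3892, 388, 2400.1 and 3032 CPM and a position of 0.89. In each, normal spleen was far below the other 3 libraries. The row of miR-126b-3p repeats the counts of miR-126a-5p (68, 10, 120 and 49 counts, position 0.90), so the pair is 1 measurement.

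At the other end, 5 miRNAs matched normal spleen most closely. miR-151-3p, from an intron of the focal adhesion kinase gene Ptk2, had 3409, 20536, 7011 and 21432 CPM, a position of -0.02. Both spleen libraries were thus above both BM libraries. miR-574-3p had 48.2, 242, 64.2 and 249 CPM, with the same order. miR-331-3p, miR-532-3p and miR-505-5p had positions of 0.02, 0.05 and 0.05, but with 15, 20 and 14 counts in AML spleen they stayed under the minimum for a call against normal BM.

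The 34 miRNAs higher in AML spleen had their highest level of the 4 libraries in normal spleen for 16 and in AML spleen for 18. Normal BM was the lowest library for 24 of the 34 and for 30 of the 129 that were neither, but the call itself selects for a low value in normal BM. Together the 34 held 2.36% of the normal BM reads and 9.51% of the AML spleen reads, against 14.1% for normal spleen and 5.71% for AML BM.

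Lymphocyte miRNAs were among them. Of 12 rows of the lymphocyte list 7 were compared, and 4 were higher, 1 lower and 2 neither, with a median log2 ratio of 1.33 against -0.30 for all 207. Over all 207, 16.4% were higher and 21.3% lower. The lower member was miR-181d-5p (log2 ratio -2.48), and miR-181b-5p (-0.25) and miR-342-5p (0.85) were neither. The latter, the more abundant arm of its hairpin in each library, had 2102, 2752, 2011 and 3794 CPM. miR-150-5p, which restrains the transcription factor Myb in lymphocyte development, had 743, 25275, 1352 and 8687 CPM. AML spleen was 11.7-fold above normal BM (log2 3.55, interval 3.31 to 3.80), and normal spleen stood above all others. Its partner miR-150-3p (sequence above) had 400.2, 1892, 353 and 2493 CPM (log2 ratio 2.64, interval 2.30 to 2.99), here with both spleen libraries above both BM libraries.

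miR-342-3p, from an intron of Evl, had 154, 2002, 121 and 627 CPM, a log2 ratio of 2.02 (interval 1.45 to 2.63). miR-181a-5p, which tunes the sensitivity of the T cell receptor, had 13150.1, 73049, 36519 and 33057 CPM, a log2 ratio of 1.33 (interval 1.26 to 1.40). For miR-181a-5p AML spleen and AML BM were level with each other and above normal BM. The list made up 1.92%, 9.89%, 4.67% and 5.38% of the reads, so its share in AML spleen was between those of the normal tissues, and miR-181b-1-3p and the 3p arms of miR-181c and miR-181d were at or near 0. The part of lymphocyte RNA in these differences was not tested.

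Pan-haematopoietic and antigen-presentation markers were also higher. miR-142a-3p (sequence above) had 149, 4346, 606 and 1311 CPM, 8.77-fold above normal BM in AML spleen (log2 3.13, interval 2.59 to 3.72). miR-142a-5p had 323, 2670.3, 617 and 1104 CPM (log2 ratio 1.77, interval 1.37 to 2.19), with the same order of libraries as the 3p arm. The row of miR-142b repeats the counts of miR-142a-3p. miR-5107-5p, whose gene overlaps that of the MHC class II invariant chain Cd74, had 178, 1436, 136 and 2783 CPM (log2 ratio 3.96, interval 3.48 to 4.49). Both spleen libraries were far above both BM libraries for miR-5107-5p. The exception in this list of 5 compared rows was miR-223-5p, which was lower in AML spleen (log2 ratio -1.97, interval -3.13 to -0.95). The 5 rows, with 4 higher and 1 lower, had a median log2 ratio of 3.13, where 16.4% of all 207 were higher and 21.3% lower. Without the repeated row 3 of 4 were higher and the median was 2.45, and 2 of the 3 are arms of the miR-142a hairpin.

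Of the inflammation-induced miRNAs, 5 of 14 rows were compared, 1 was higher and 4 neither, with a median log2 ratio of 0.01. With 16.4% of all 207 higher, 1 of 5 is close to the general share. miR-155-5p (sequence above), which is transcribed on Toll-like receptor and NF-kappa B signalling, had 14, 824, 100 and 95 counts. Its level was 7.29-fold above normal BM in AML spleen (log2 2.87, interval 2.05 to 3.79), and its log2 ratio to normal spleen was -2.09. Normal BM, with 14 counts, was the lowest library and normal spleen the highest, with both AML libraries between them. miR-146a-5p, a feedback inhibitor of the same signalling, had 2107, 17223, 2311 and 4183 CPM and a log2 ratio of 0.99, just under 2-fold, and passed it under 3 of 4 other scalings. miR-9-5p had a log2 ratio of 0.01, with an interval of -0.24 to 0.26.

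miR-455-3p (sequence above) had the highest ratio among miRNAs with at least 100 counts. It had 5, 414, 73 and 129 counts, so AML spleen was 27.7-fold above normal BM (log2 4.79, interval 3.53 to 6.44), and normal BM again stood below the rest. The other higher miRNAs among the 10 with the highest ratios were miR-8112 (50, 340, 220 and 293 counts, log2 ratio 2.66) and miR-339-5p (31, 442, 93 and 149 counts, 2.37). Both were lowest in normal BM.

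**Figure D3:**
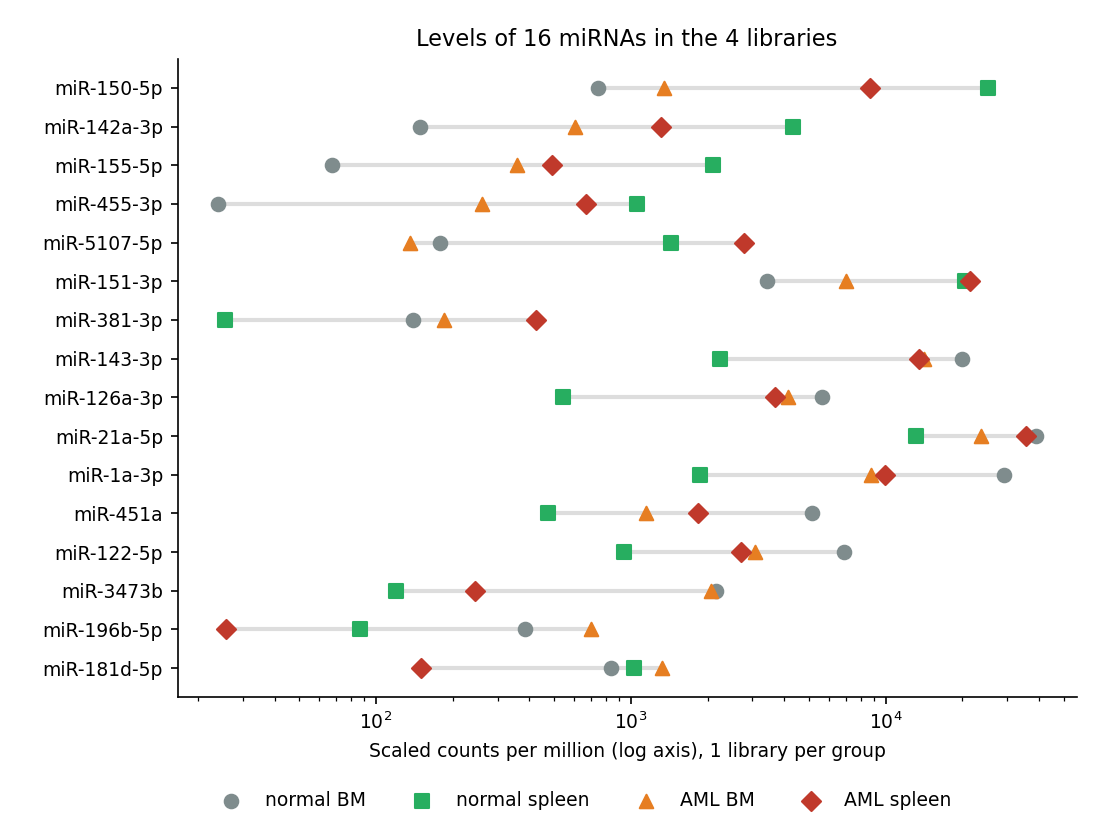
Scaled counts per 1000000 (log x axis) of 16 miRNAs in the 4 libraries, 1 point per library: circles (grey) mark normal BM, squares (green) normal spleen, triangles (orange) AML BM and diamonds (red) AML spleen. For the first 4 miRNAs the AML spleen point lies between normal BM and normal spleen, and for miR-196b-5p and miR-181d-5p it is the lowest of the 4.

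Of the 44 miRNAs lower in AML spleen, normal BM had the highest level for 30, AML BM for 12 and normal spleen for 2, and normal spleen was the lowest for 26 and AML spleen for 18. Here too the call selects for a high value in normal BM, which was the highest library for 43 of the 129 that were neither. The 44 held 10.3% of the normal BM reads and 3.79% of the AML spleen reads, against 1.51% for normal spleen and 4.95% for AML BM.

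Muscle miRNAs were among them. Of 7 rows 6 were compared, 5 were lower and 1 neither, with a median log2 ratio of -1.57. Of all 207 miRNAs 21.3% were lower, and their median was -0.30. miR-1a-3p, the main miRNA of striated muscle, had 29160, 1875, 8752 and 9946 CPM (log2 ratio -1.55, interval -1.63 to -1.48), and the row of miR-1b-5p repeats its counts, so that 4 of 5 were lower without it. miR-206-3p (sequence above), found in skeletal muscle, had 4755, 329, 1252 and 1296 CPM (log2 ratio -1.88, interval -2.08 to -1.67). In both, normal BM was highest, normal spleen lowest and the AML libraries close together. miR-133b-3p, in the same transcript cluster as miR-206-3p, had 60, 4, 20 and 11 counts (log2 ratio -2.34), and miR-499-5p 42, 7, 15 and 13 (-1.59). The muscle rows made up 6.54%, 0.380%, 2.0% and 2.39% of the reads, with the repeated row counted in each. These miRNAs are those of striated muscle, and the part of RNA from other tissue in the differences was not tested.

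Some markers of epithelium and liver were lower as well, and so was 1 of 4 erythroid rows. Of 7 epithelial miRNAs compared 4 were lower and 3 neither (median log2 ratio -1.12), led by miR-203-3p with 188, 32, 151 and 55 counts (-1.67), followed by miR-205-5p (-1.46), miR-429-3p (-1.35) and miR-200a-5p (-1.12). Of 4 liver and gut miRNAs 3 were lower (median -1.20). Over all 207 the share lower was 21.3% and the median -0.30. miR-122-5p, the miRNA of hepatocytes, had 6867, 936, 3056 and 2716 CPM (log2 ratio -1.34, interval -1.49 to -1.19), miR-375-3p 52, 7, 17 and 14 counts (-1.79) and miR-194-5p 699, 133, 582 and 312 (-1.06). Of 4 erythroid rows compared 1 was lower and 3 neither, with a positive median log2 ratio of 0.66. The lower row was miR-451a, which is cut by Argonaute 2 in place of Dicer, with 5126, 474, 1152 and 1840.0 CPM (log2 ratio -1.48, interval -1.66 to -1.30). The other 3 erythroid rows are those of miR-486, whose counts nearly repeat each other, with miR-486a-5p at 913, 3466, 1779 and 1340 counts (0.66).

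The epithelial, liver and gut, and erythroid rows held 1.46%, 1.93% and 1.83% of the normal BM reads and 0.871%, 0.994% and 2.38% of the AML spleen reads. In normal spleen they held 0.18%, 0.21% and 2.37%. The erythroid share counts each of the miR-486 rows, which nearly repeat each other and hold most of it. No order of the libraries is therefore read from the erythroid share. Stromal miRNAs, with 7 compared and none called (median -0.90), held 2.64%, 0.279%, 1.84% and 1.97% of the reads. miR-143-3p, of smooth muscle and fibroblasts, had 19887, 2242, 14112 and 13559 CPM (log2 ratio -0.55). Endothelial miR-126a-3p, whose gene overlaps an exon of Egfl7 and an intron of Gm20532, had 5618, 543, 4144 and 3690.3 CPM (-0.61). For both, normal spleen was the library that stood apart, by more than 2 log2 units below AML spleen. The part of these lists in the position of AML spleen between the normal tissues was not tested. With the muscle, epithelial, liver and gut, stromal, endothelial, erythroid and lymphocyte rows left out, which was decided after seeing the data, 30 miRNAs were higher and 30 lower of 169, and 63 of 122 lay nearer normal BM.

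Among miRNAs of haematopoietic progenitors and of MLL leukaemia, miR-196b-5p and miR-125a-5p were highest in AML BM and lowest in AML spleen. miR-196b-5p (sequence above), encoded beside Hoxa9 and known to be high in MLL-rearranged leukaemia, had 80, 34, 196 and 5 counts. The AML spleen level was 14.9-fold below normal BM (log2 ratio -3.90, interval -5.56 to -2.61), with a log2 ratio of -4.75 to AML BM, so the AML libraries were the highest and the lowest of the 4. Of the other HOX-embedded miRNAs, miR-10a-3p was lower (34, 11, 44 and 8 counts, log2 ratio -1.98), and miR-10a-5p (-0.66) and miR-10b-5p (-0.47) were neither. These 3 were highest in normal BM and lowest in normal spleen. miR-125a-5p, of the haematopoietic stem cell cluster with miR-99b and let-7e, had 1538, 559, 1772 and 482 CPM (log2 ratio -1.67), with both spleen libraries below both BM libraries. miR-99a-5p, at -0.89, was not called, and of 5 miRNAs of the miR-99, miR-100 and miR-125 list 1 was lower, close to the 21.3% of all 207.

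miR-3473b (sequence above) was higher in both BM libraries than in both spleen libraries. It had 2160.3, 119.9, 2072 and 244 CPM (log2 ratio -3.15, interval -3.61 to -2.71) and the BM libraries were level with each other. miR-3473e was also higher in both BM libraries than in both spleen libraries, with 36, 13, 54 and 8 counts, but was highest in AML BM. miR-204-5p had 38, 3, 7 and 0 counts and was at least 11.8-fold lower in AML spleen, with 3 counts entered for the 0.

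Proliferation-linked miRNAs of the miR-17-92 cluster and its paralogues had 11 members compared, of which none was higher, 4 were lower and 7 neither, against 34 higher and 44 lower of all 207. Their median log2 ratio was -0.30, the value of miR-92a-3p. That value is also the median of all 207, so nothing is read from the equal medians. The 4 were miR-363-3p (-2.39), miR-20a-5p (-1.36), miR-17-3p (-1.25) and miR-25-5p (-1.09). All 10 let-7 miRNAs compared were neither (-0.80 to 0.64). Of 10 miR-30 miRNAs, miR-30f (-1.39) and miR-30b-3p (-1.07) were lower and 8 neither, with miR-30a-5p at -0.76. miR-29b-3p (-1.54) and miR-222-3p (-1.37) were lower, while the relatives miR-29a-3p (-0.43) and miR-221-3p (-0.22) were not. miR-25-5p, miR-30b-3p and miR-194-5p were under 2-fold on 3 of the 4 other scalings, and miR-200a-5p on 2, while miR-17-3p was so on 1.

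Further lists had no call: miR-23, miR-27 and miR-24 (6 compared, median -0.02, miR-27b-3p at -0.67), miR-26, miR-103 and miR-107 (4, -0.23, miR-26a-5p at -0.13), neural (2, -0.21, miR-128-3p at -0.13), alternative activation and metabolic (3, 0.56, miR-378a-3p at 0.26) and miR-34 (2, 0.32, miR-34c-5p at -0.06). The first 3 medians turned positive on at least 1 of the other scalings. The hypoxia list had no row compared.

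**Figure D4:**
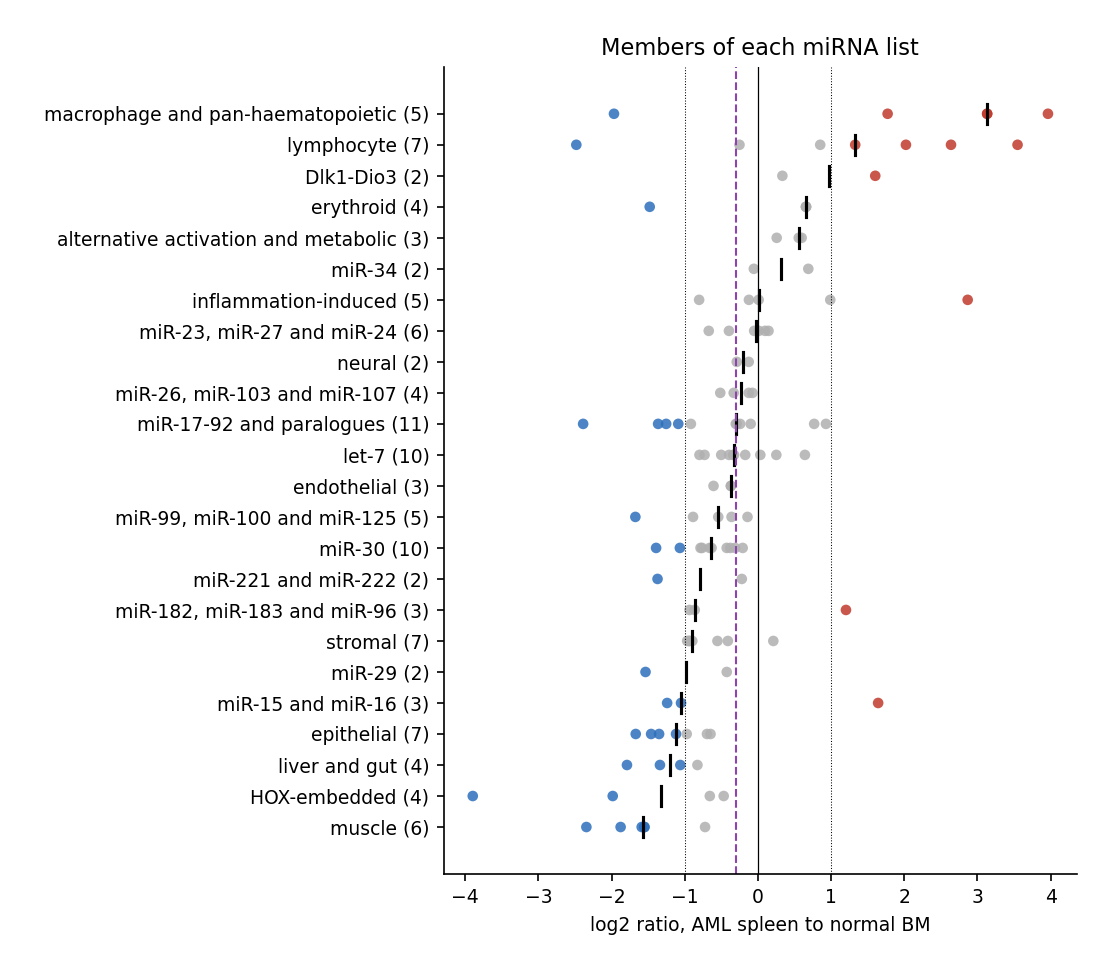
The log2 ratio of AML spleen to normal BM (x axis) for each compared member of 24 lists, with the number compared in brackets: red points were higher, blue lower and grey neither, black bars are list medians, the dashed line is the median of all 207 miRNAs (-0.30) and dotted lines are at 2-fold. The macrophage and pan-haematopoietic and the lymphocyte lists have the highest medians (3.13 and 1.33) and the muscle list the lowest (-1.57).

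A total of 17 of the 184 miRNAs compared with both normal libraries lay at least 2-fold outside both, 8 above and 9 below. Below both was miR-181d-5p with 174, 405, 371 and 29 counts, a log2 ratio of -2.48 to normal BM and -2.78 to normal spleen. miR-130b-5p had 202, 431, 315 and 59 counts (-1.67 and -1.85), and miR-1839-5p 78, 157, 77 and 23. In each of these AML spleen was the only low library. miR-196b-5p, miR-676-3p (-1.56 to normal BM), miR-363-3p, miR-17-3p, miR-25-5p and miR-30b-3p make up the rest, and for all 9 AML BM was above AML spleen.

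Above both were miR-3470a with 3, 35, 10 and 51 counts and miR-3470b with 5, 34, 43 and 57, at log2 ratios of 4.19 and 3.62 to normal BM. miR-381-3p, which lies in the imprinted Dlk1-Dio3 region, had 29, 10, 52 and 82 counts (log2 ratio 1.6 to normal BM and 4.06 to normal spleen), whereas miR-127-3p of the same region was 0.33 from normal BM. miR-3065-3p had 8, 12, 11 and 33 counts, miR-690 14, 23, 22 and 42, and miR-338-5p 11, 15, 18 and 33. miR-96-5p had 14, 9, 12 and 30 counts, at the minimum for a call, while miR-183-5p of its cluster was at -0.93. miR-881-3p completes the set with 33, 14, 31 and 62 counts. AML spleen was the highest library in all 8, on counts of 30 to 82.

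Shared seeds allowed relatives to be compared. Of 20 seed families with at least 2 members compared, 2 had members called in opposite directions. In the miR-181 family (seed ACAUUCA), miR-181a-5p was higher (1.33), miR-181b-5p was neither (-0.25; 1678, 3711, 3409 and 1409.8 CPM) and miR-181d-5p was lower (-2.48). As the sequences above show, miR-181d-5p differs from miR-181a-5p at 4 positions counted from the 5′ end (9, 10, 12 and 21), all outside the seed, and miR-181b-5p at 3 of them (9, 10 and 21). The family summed to 15667 CPM in normal BM and 34617 in AML spleen, a log2 ratio of 1.14, with miR-181a-5p the most abundant member in both. In the second family (seed AGCAGCA), miR-15b-5p was higher with 32, 558, 111 and 93 counts (1.64, interval 1.05 to 2.27), and miR-16-5p was lower with 138, 139, 108 and 62 (-1.05, interval -1.51 to -0.61). miR-16-5p fell short of 2-fold on 3 of the 4 other scalings. The sum of the pair was 820 CPM in normal BM and 803 in AML spleen, a log2 ratio of -0.03.

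Hairpins within 10 kb on 1 strand formed 24 clusters with at least 2 compared members. On the X chromosome (chrX:53049403-53054349, minus strand), miR-322-3p (-1.24, under 2-fold on 1 other scaling), miR-351-5p (-2.08) and miR-542-3p (-2.0) were lower and miR-503-5p (-0.15) neither. Both members of the cluster of Mir206 and Mir133b (chr1:20679010-20682887) were lower, as were 2 of 4 of the cluster of Mir200a, Mir200b and Mir429 (chr4:156053905-156055750). These clusters were picked after their values were seen, and 21.3% of all 207 miRNAs were lower. Other clusters had no call, such as that of Mir23a, Mir27a and Mir24-2 (4 neither). That of Mir182, Mir183 and Mir96 had 1 higher and 2 neither. For GC content and log2 ratio over 174 miRNAs with a RefSeq sequence, the Pearson r across miRNAs was 0.04 and the Spearman rho 0.11.

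The arms of a hairpin can be compared within a library, without any scaling between libraries. Of 30 hairpins with both arms counted, the 5p share was within 10 percentage points in 20, the median absolute difference was 6.03 points, and the interval of the odds ratio excluded 1 for 17. The dominant arm differed for miR-142a and miR-877, but the latter had 54 counts on the 5p and 53 on the 3p arm in normal BM, so neither arm dominated there. The widest difference was in miR-455, where the 5p arm led in both libraries. For miR-455 the 5p share was 98.0% in normal BM (95% exact binomial interval 95.3% to 99.3%) and 56.0% in AML spleen (50.1% to 61.7%), against 14.1% for normal spleen and 77.6% for AML BM. The log2 ratio was -0.45 for the 5p arm and 4.79 for the 3p arm.

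For miR-142a the 5p share was 68.4%, 38.1%, 50.4% and 45.7%, and both AML libraries lay between the normal tissues. For miR-139 it was 64.5%, 94.1%, 82.7% and 85.7%, with the same order reversed. For miR-149 it was 68.1%, 98.3%, 81.5% and 89.4%. For miR-574 it was 83.9%, 73.4%, 85.2% and 59.7%, where AML spleen was below all others. In 4 of these 5, chosen for the largest differences, AML spleen lay between normal BM and normal spleen, and normal BM had 5 to 938 counts on the minor arm.

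**Figure D5:**
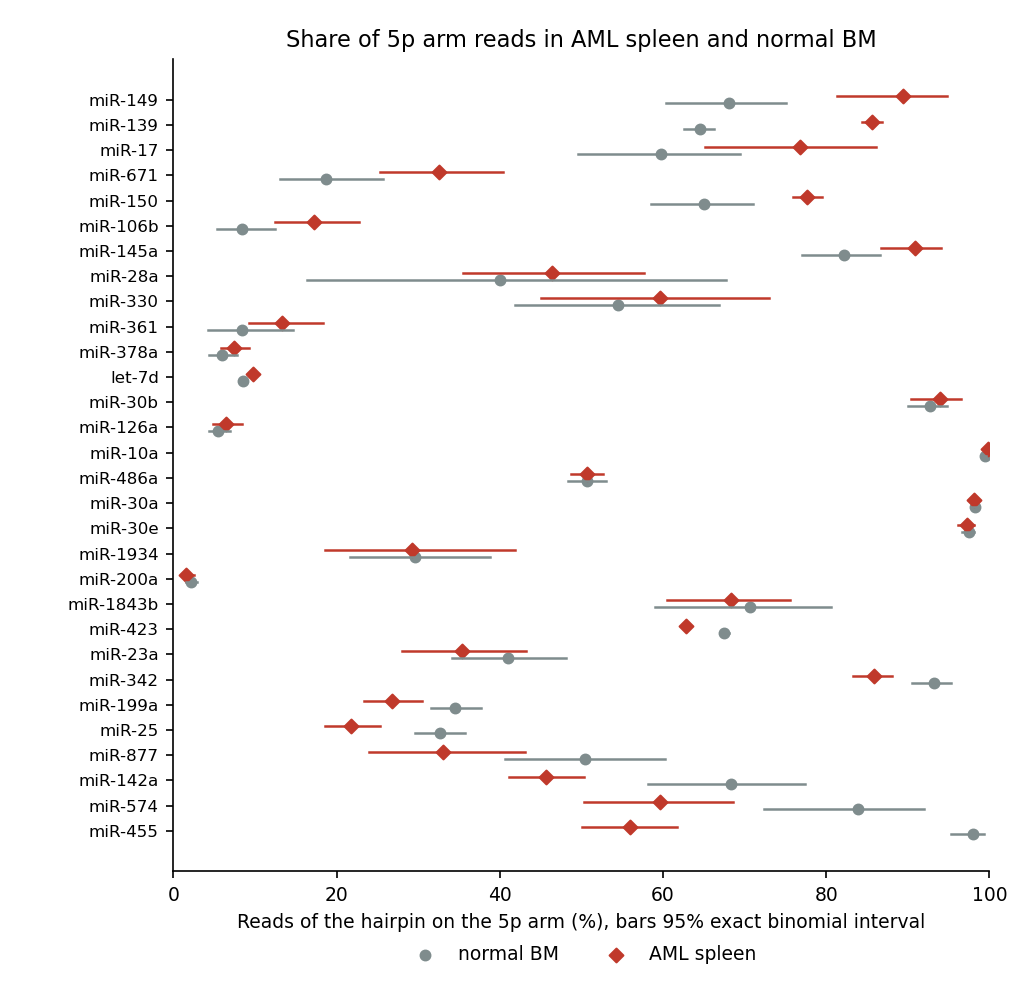
The share of a hairpin's reads on the 5p arm (x axis, percent) in normal BM (grey circles) and AML spleen (red diamonds) for 30 hairpins, with 95% exact binomial intervals as bars. miR-455 has the widest gap (98.0% and 56.0%), and 20 hairpins lie within 10 points.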

How the data were processed

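Small RNA of sorted macrophages was sequenced by Illumina HiSeq, as the labels' protocols state. The deposited table gives raw counts per miRNA, per the file headers, and TPM values, which equalled counts per 1000000 with no length term and served for this check only. How reads were aligned and counted, and on which build, is not given in the sources used here. Of 847 rows 43 name predicted miRNAs (0.0193% to 0.0915% of reads). Another 7 repeat the counts of a row within 3% or 2 counts in all 4 libraries.

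Groups came from sample titles. TMM factors were taken over the 4 libraries (edgeR 4.0.16, R 4.3.3); DESeq2 1.42.0 size factors were an alternative. Ratios carry exact conditional (Clopper-Pearson) intervals from scipy 1.17.1, and a count of 0 entered as 3 counts. Reads carry no molecular identifiers, so intervals cover counting error only; no p-value was computed. The calculations were checked on simulated data. The check of the arm shares failed its limit on a single draw and was replaced by a mean over many draws, with a limit chosen after that failure. On equal shares the intervals then excluded 1 slightly more often than their nominal rate.

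The text names the 10 highest and 10 lowest ratios among calls with at least 100 counts, the 10 most abundant miRNAs, the called members and most abundant member of each of 25 lists, the 10 farthest outside both normals (the rest of that set, chosen later, is named too), 5 arm shares and 5 placements at each end. Other miRNAs named, such as relatives by seed, cluster or arm, were chosen after their values were seen. Members and lists were chosen with earlier results of these data known.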

Additional observations from a re-analysis of the deposited data

How the results depend on the processing

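The minimum count moved the totals most, since it sets how many rows enter. With at least 1 count, 71 of 650 miRNAs were higher and 80 lower, and 150 of 259 (57.9%) lay nearer normal BM. At that minimum 35 lay outside both normals, and 35 of 121 hairpins had an interval without 1. With at least 100 counts, 16 of 122 were higher and 20 lower, and 63 of 96 (65.6%) lay nearer normal BM. There 4 lay outside both normals, 9 of 11 hairpins had an interval without 1, and the median absolute log2 ratio was 0.657. DESeq2 size factors gave 34 higher and 44 lower, total counts 36 and 38, and the table without repeated and predicted rows 33 and 42. Factors from the 2 libraries alone lost 8 calls and gained 8, total counts lost 6 and gained 2, and totals without the 10 most abundant miRNAs lost 10 and gained 13. No called miRNA could change direction, since a call needs at least 2-fold and the other scalings moved log2 ratios by at most 0.27. The other minimum counts and the removal of rows left the ratios as they were. Factors from 2 libraries give no value for placements or correlations over 4 libraries. No paired analysis was possible because each group has 1 library, and for the same reason no library could be left out. AML spleen was the shallowest library, and 30 counts were 155 CPM there and 145 in normal BM. Rarer miRNAs were left out by the minimum and not by a test of what could be detected.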
